A study of Mus musculus with 5 samples.

Results

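Genes of antigen presentation on major histocompatibility complex (MHC) class II were examined in dermal group 2 innate lymphoid cells (dILC2s) of wild-type and Rag1-/- mice. The 9 members were taken by their gene symbol from the 47729 genes of the count table, and all 9 were found and passed the filter on low counts. They are H2-Aa, H2-Ab1 and H2-Eb1, which encode chains of the class II molecule, Cd74, Ciita, H2-DMa, H2-DMb1, H2-Oa and H2-Ob. RNA of freshly sorted, unstimulated cells from skin had been sequenced in 5 libraries, each from 1 pool of mice. The 3 WT libraries (pools 5, 6 and 13) came from C57BL/6 mice, 10 mice per pool by the methods of the study. The 2 Rag1-/- libraries (pools 2 and 7) came from mice that lack Rag1 on the same background and therefore lack mature T and B cells. These pools held 9 mice each by the methods of the study, whereas the labels give 16 Rag1-/- mice in all. Mice were female and 8 to 13 weeks old. The labels name the cells of the WT libraries as type 2 and those of the Rag1-/- libraries as type 3 innate lymphoid cells, although the protocol calls all of them dILC2s.

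Class II molecules display peptides from endosomes to CD4+ T cells. An alpha and a beta chain assemble with the invariant chain, encoded by Cd74, which guides them to endosomes and blocks the peptide groove. The H2-DM heterodimer then exchanges the remnant of the invariant chain for peptide, and the H2-O heterodimer restrains H2-DM. Ciita encodes the transactivator that is required for transcription of these genes. In skin, Langerhans cells, dendritic cells and macrophages carry class II at high levels, and innate lymphoid cells can carry it at lower levels. C57BL/6 mice lack a functional E alpha gene, so that the H2-Eb1 chain has no partner at the cell surface.

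Libraries held between 8050562 counts (Rag1-/- pool 2) and 39477243 counts (WT pool 6), and the other 3 held at least 32939428. At 3 counts, taken as the smallest number that can be read, the floor was 0.373 CPM (the usual scaling of a gene's counts to its library's total) in Rag1-/- pool 2 and at most 0.0911 CPM elsewhere, which covers counting error only. Every member was above it in every library. For Rag1 itself, 4, 0 and 5 reads were counted in WT pools 5, 6 and 13, 5 reads in the library labelled Rag1-/- pool 2 and 48 in that labelled Rag1-/- pool 7. The transcript thus does not show the deletion, and the genotypes are those of the labels. Genes of the ILC2 list were present in all libraries, among them Gata3 (199 to 558 CPM) and Thy1 (226 to 988 CPM), which encodes CD90 of the study's gate. Klrg1 ran from 0.129 CPM (5 counts) in WT pool 5 to 11.9 CPM in Rag1-/- pool 2, and Il1rl1 from 8.17 to 161 CPM in the same pools. The sum over 16 ILC2 genes was 1688 to 3398 CPM in WT and 8757 and 6095 CPM in Rag1-/- libraries. Transcripts of other skin cells were present as well. Values given below for dILC2s are therefore those of the whole sorted library, and which cells a transcript came from was not tested. The sum over 14 keratinocyte genes was 28641 to 41111 CPM in WT and 7157 and 16769 CPM in Rag1-/- libraries, and the sum over 30 genes expressed by all leukocytes was 1157 to 2762 CPM in WT and 8903 and 7739 CPM in Rag1-/- libraries.

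Of the members, 7 lie in the class II region of chromosome 17 between 34092340 and 34316199 (GRCm38), a span of 224 kb. Promoters of class II genes share an X box, bound by the RFX complex, and a Y box, an inverted CCAAT sequence bound by NF-Y, on which the protein encoded by Ciita docks without touching DNA itself. RefSeq promoters (250 bases before to 50 after the start, GRCm38.p6) were found for 6 of the 9 members. The letters GNAAC from the core of the X box, followed after 25 to 40 bases (start to start) by GATTGG from the Y box, were searched on both strands and were chosen after these promoters had been read. They stood on the coding strand in 5 of the 6 members with an entry, and in 0.922% of 32851 promoters on either strand. GATTGG alone stood in 16.1% of promoters. The stretches of 4 members are shown because they include genes whose levels ran together (H2-Aa, H2-Eb1) and genes whose levels did not (H2-Oa, H2-Ob). Capitals mark the GNAAC and GATTGG letters, and each stretch is written 5′ to 3′ on the strand of its gene.
H2-Aa (chr17:34287847-34287924, minus strand): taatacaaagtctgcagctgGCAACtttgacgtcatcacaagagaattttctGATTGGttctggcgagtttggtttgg
H2-Eb1 (chr17:34305756-34305832, plus strand): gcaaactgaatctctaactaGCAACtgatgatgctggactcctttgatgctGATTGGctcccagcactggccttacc
H2-Oa (chr17:34092283-34092360, plus strand): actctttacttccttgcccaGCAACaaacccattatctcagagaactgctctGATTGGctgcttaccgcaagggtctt
H2-Ob (chr17:34238798-34238872, plus strand): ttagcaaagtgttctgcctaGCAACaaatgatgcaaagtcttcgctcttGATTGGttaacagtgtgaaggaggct
The spacing was 32 bases in H2-Aa and H2-Oa, 31 in H2-Eb1 and 29 in H2-Ob, and the H2-DMb1 promoter held GTAAC and GATTGG at 32 bases. Neither of the 2 promoters listed for H2-DMa held the pair, but both windows (34122582 to 34122881 and 34125268 to 34125567) lie upstream of the start of the gene as counted (34135182), and the sequence at that start was not searched. H2-Ab1, Cd74 and Ciita had no entry. These letters are a description of the windows and not evidence of binding.

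The genes of the class II chains and of the invariant chain were abundant in both genotypes and did not separate them. H2-Aa, which encodes the A alpha chain, had 302, 253 and 739 CPM in WT pools 5, 6 and 13 and 353 and 698 CPM in Rag1-/- pools 2 and 7. The highest and the lowest value both belonged to WT, and both Rag1-/- libraries fell between them. H2-Ab1, the gene of the A beta chain, had 300.0, 236 and 675 CPM in WT and 367 and 603 CPM in Rag1-/- dILC2s. H2-Eb1, the gene of the E beta chain, had 281, 222 and 646 CPM in WT and 366 and 556 CPM in Rag1-/- dILC2s. Cd74 (chromosome 18, 60803848 to 60812646) was the most abundant member, with 661, 526 and 1408 CPM in WT and 924 and 1267 CPM in Rag1-/- dILC2s. In these 4 genes WT pool 13 stood well above the other WT pools, and the highest WT pool was 2.68 (Cd74) to 2.93 (H2-Aa) times the lowest. For H2-Aa the mean was 431 ± 268 CPM over WT pools (SD, n = 3) and 525 ± 245 CPM over Rag1-/- pools (SD, n = 2).

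**Figure D1:**
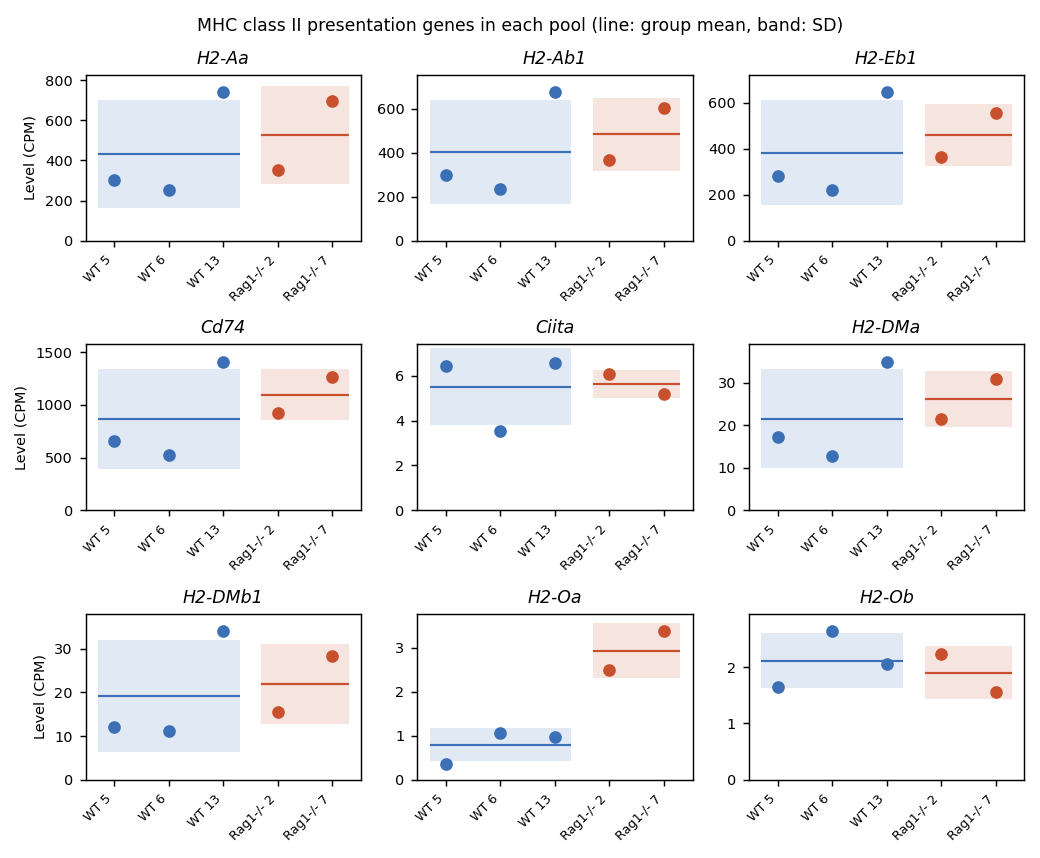
Level of each of the 9 members in CPM (y axis, from 0) in the 3 WT pools (blue) and the 2 Rag1-/- pools (red). Lines are group means and bands are 1 SD. For 8 members the groups overlap, and for H2-Oa both Rag1-/- pools (2.48 and 3.37 CPM) lie above all WT pools (0.361 to 1.06 CPM).

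Both genes of the peptide exchange factor H2-DM followed the same order at lower levels. H2-DMa had 17.1, 12.7 and 34.9 CPM in WT pools 5, 6 and 13 and 21.5 and 30.8 CPM in Rag1-/- pools 2 and 7. H2-DMb1 had 12.2, 11.3 and 34.0 CPM in WT and 15.5 and 28.4 CPM in Rag1-/- dILC2s. As for the class II chains, WT pool 13 was highest and WT pool 6 lowest. Of the 50-base stretches in transcripts of H2-DMb1, 22.7% also occur in its neighbour and close copy H2-DMb2, so that the counts of this pair are uncertain with 50-base reads. In the other members at most 0.488% of such stretches occur in another gene. H2-DMb2 had 2.68, 1.49 and 5.59 CPM in WT and 5.59 and 4.93 CPM in Rag1-/- dILC2s.

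The genes of H2-O, the modulator of H2-DM, were near the bottom of the range. The reads counted for H2-Oa numbered 14, 42 and 32 for WT pools 5, 6 and 13, against 20 and 131 for Rag1-/- pools 2 and 7, which gave 0.361, 1.06 and 0.971 CPM in WT and 2.48 and 3.37 CPM in Rag1-/- dILC2s. It was the only member whose groups did not overlap, and 45.9% of all 19011 genes tested also had groups that did not overlap (21.9% with the Rag1-/- libraries higher). H2-Ob had 1.65, 2.63 and 2.06 CPM in WT and 2.24 and 1.57 CPM in Rag1-/- dILC2s, and its groups overlapped. H2-Oa lies entirely within BC051537, an antisense gene with 0 or 1 count in each library. The library kit is not described as keeping strand, and reads of the 2 genes then cannot be told apart.

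Ciita, the transactivator gene on chromosome 16 (10488178 to 10527564), was expressed at a low and even level. It had 6.44, 3.52 and 6.56 CPM in WT pools 5, 6 and 13 and 6.09 and 5.19 CPM in Rag1-/- pools 2 and 7, so that the mean was 5.51 ± 1.72 CPM over WT pools (SD, n = 3) and 5.64 ± 0.634 CPM over Rag1-/- pools (SD, n = 2). WT pool 13, which had the highest level of the class II chains, was only slightly above WT pool 5. The gene overlaps Dexi on the other strand, which had 490 to 1775 counts per library.

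Per kilobase of the transcript length given in the count table, Cd74 was the highest and H2-Oa the lowest member in WT. The mean levels in WT libraries were 643 CPM per kb for Cd74, 381 for H2-Aa, 333 for H2-Ab1 and 323 for H2-Eb1. They were 13.9 for H2-DMa, 13.6 for H2-DMb1, 1.05 for Ciita, 0.792 for H2-Ob and 0.734 CPM per kb for H2-Oa. Cd74 above H2-Aa, H2-Aa above H2-Ab1, and H2-Eb1 above H2-DMa held in all 5 libraries. H2-Ab1 was above H2-Eb1 in 4 of 5, H2-DMa was above H2-DMb1 in 3 of 5, and H2-Ob was above H2-Oa in 2 of 5 libraries, so that the members of these pairs do not differ beyond the spread. In Rag1-/- libraries the mean level of H2-Oa was 2.69 CPM per kb, above Ciita (1.07) and H2-Ob (0.712 CPM per kb) in both.

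In the comparison of Rag1-/- with WT dILC2s, which asks whether the absence of Rag1 goes with another transcriptome, none of the 9 members passed the threshold. A gene was called where the log2 fold change was beyond 1 in either direction and the adjusted p was under 0.05 in edgeR's quasi-likelihood test with Benjamini-Hochberg adjustment over 19011 genes, and 5.73% of all genes tested were called (3.57% higher and 2.16% lower in Rag1-/- libraries). At an unadjusted p-value under 0.05 there was 1 member, H2-Oa, and 26.4% of all genes. DESeq2 also called 1 member, again H2-Oa. The median log2 fold change was 0.31 over the members and 0.02 over all genes tested.

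For the class II chains and Cd74, log2 fold changes lay between 0.31 and 0.38 with wide intervals. H2-Aa had 0.33 (standard error 0.51, 95% interval -0.87 to 1.54, adjusted p = 0.738, edgeR). The interval of H2-Ab1 ran from -0.79 to 1.41, that of H2-Eb1 from -0.78 to 1.41 and that of Cd74 from -0.63 to 1.40. The data thus exclude neither a level in Rag1-/- libraries 2.91 times that of WT nor 0.547 times that of WT for H2-Aa. H2-DMa had a log2 fold change of 0.33 (interval -0.68 to 1.34), H2-DMb1 of 0.26 (-0.98 to 1.50), H2-Ob of -0.15 (-1.19 to 0.88) and Ciita of 0.06 (-0.80 to 0.93). H2-Oa had the largest value, 1.92 (standard error 0.57, interval 0.59 to 3.25, adjusted p = 0.0886, edgeR), a fold of 3.78 that did not pass the threshold. It passed with DESeq2 (1.89, adjusted p = 0.0203) and in edgeR with low-count genes kept (1.86, adjusted p = 0.0305), and adjusted p-values ranged from 0.0203 to 0.974 over the alternatives. Without Rag1-/- pool 7 the log2 fold change of H2-Aa was -0.34, and without WT pool 13 it was 0.96, neither past the threshold. At an unadjusted p-value under 0.05 there were 6 of the 9 members without WT pool 13, beside 3874 of all 18562 genes tested (edgeR). WT pool 13 was the highest library for 6 members with the same library order, so that they do not count as separate results.

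Within a library, the class II genes kept nearly fixed proportions. The ratio of H2-Aa to H2-Ab1 counts was 1.01, 1.07 and 1.10 in WT pools 5, 6 and 13 and 0.961 and 1.16 in Rag1-/- pools 2 and 7. The ratio of H2-Eb1 to H2-Ab1 ran from 0.923 to 0.997, that of Cd74 to H2-Ab1 from 2.09 to 2.52 and that of H2-DMa to H2-Ab1 from 0.0510 to 0.0586. The highest of these ratios was thus 1.08 to 1.21 times the lowest, whereas H2-Ab1 itself varied 2.86-fold over the libraries. H2-DMb1 per H2-DMa was more variable, from 0.711 to 0.975. H2-Oa per H2-DMa was 0.0211, 0.0840 and 0.0279 in WT and 0.116 and 0.109 in Rag1-/- dILC2s, without overlap (difference of mean log2 ratios 1.62, exact two-sided permutation test, p = 0.2). The ratios of single genes were not planned. H2-Oa was already the only member whose groups did not overlap, so that this ratio is no separate result. With 3 libraries against 2 there are 10 splits, and no exact permutation test can go below p = 0.1. The ratio of summed H2-O to summed H2-DM counts overlapped between the groups (0.0441 to 0.155 in WT, 0.0834 and 0.128 in Rag1-/- dILC2s, exact two-sided permutation test, p = 0.5).

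**Figure D2:**
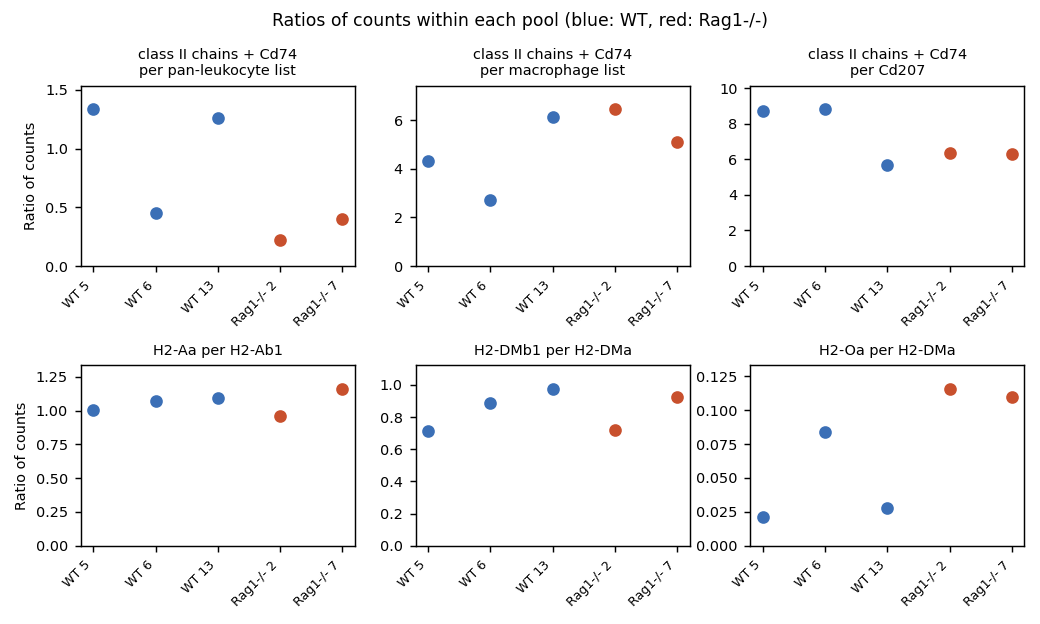
Ratios of counts (y axis, from 0) in each of the 5 pools, WT in blue and Rag1-/- in red. H2-Aa per H2-Ab1 stays between 0.961 and 1.16, class II chains with Cd74 per pan-leukocyte list runs from 0.226 to 1.34, and H2-Oa per H2-DMa is higher in both Rag1-/- pools (0.109 and 0.116) than in the WT pools. The ratios of single genes and the ratio per Cd207 were not planned.

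The order of the libraries was the same in 6 members, H2-Aa, H2-Ab1, H2-Eb1, Cd74, H2-DMa and H2-DMb1, with WT pool 13 highest, followed by Rag1-/- pool 7, Rag1-/- pool 2, WT pool 5 and WT pool 6. This order was found in 74 of all 19011 genes tested (0.389%). Ciita, H2-Oa and H2-Ob each had another order. Likeness to the mean profile of H2-Aa, H2-Ab1, H2-Eb1 and Cd74 was measured as the root mean square difference in centred log2 CPM over the 5 libraries. It was 0.0773 for H2-DMa, 0.115 for H2-DMb1, 0.494 for Ciita, 0.745 for H2-Ob and 0.962 for H2-Oa. Among 15030 genes with a mean of at least 1 CPM, including the members, the nearest that was no member was Il1r2, the decoy receptor of interleukin-1, at 0.0874, with 146, 126 and 361 CPM in WT and 215 and 292 CPM in Rag1-/- dILC2s. It was followed by Ncf1 (0.128), a subunit of the phagocyte oxidase, Gm10762 (0.136), Alox5ap (0.145), which serves leukotriene synthesis, and Neb (0.147). Negr1, Hsd17b11, Dpysl5, Marcksl1 and Nlrp3 completed the 10 nearest genes, with differences up to 0.178. These are distances over 5 libraries that share depth and cell composition, and they say nothing of shared control.

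**Figure D3:**
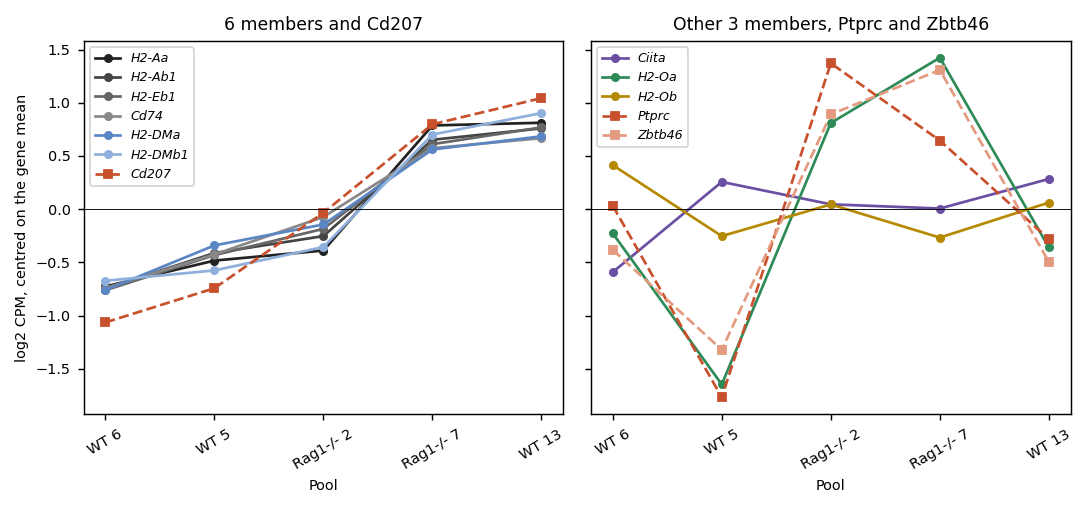
Centred log2 CPM (y axis) in the 5 pools (x axis, ordered by the level of H2-Ab1). In the left panel the 6 members with the same library order and Cd207 rise from WT 6 to WT 13, with both Rag1-/- pools in between; in the right panel Ciita, H2-Oa, H2-Ob, Ptprc and Zbtb46 have other orders.

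Markers of cells that carry class II were examined beside these values, since a bulk library cannot tell fewer cells of a type from less RNA per cell. Cd207, which encodes langerin of Langerhans cells and of some dermal dendritic cells, had 177, 140 and 608 CPM in WT pools 5, 6 and 13 and 316 and 493 CPM in Rag1-/- pools 2 and 7, in the same library order as the 6 members. It ranked 41st in likeness to the class II profile, with a difference of 0.26. The counts of the class II chains and Cd74 per count of the list of 5 Langerhans cell genes were 0.640, 0.573 and 1.42 in WT and 1.64 and 1.47 in Rag1-/- dILC2s, higher in both Rag1-/- libraries without overlap (difference of mean log2 ratios 0.95, exact two-sided permutation test, p = 0.2). Per count of Cd207 alone, a denominator chosen after the data were seen, they were 8.74, 8.83 and 5.70 in WT and 6.35 and 6.33 in Rag1-/- dILC2s, and the groups overlapped (difference -0.26, exact two-sided permutation test, p = 0.4). The whole list summed to 2157 to 2446 CPM in WT and to 1222 and 2130 CPM in Rag1-/- libraries. None of its 5 genes was called by edgeR (3 at an unadjusted p-value under 0.05), beside 5.73% of all genes tested (26.4% at an unadjusted p-value under 0.05). DESeq2 called 2, among them Epcam, which was lower in Rag1-/- libraries, and 1 of the 5 (Cd207) had the library order of the class II genes. What part Langerhans cells had in the class II levels was not tested.

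The other lists of class II-bearing cells are given by their sums and calls. For comparison, edgeR called 3.57% of all genes tested higher and 2.16% lower, and 26.4% had an unadjusted p-value under 0.05. The dendritic cell list summed to 122 to 194 CPM in WT and 293 and 347 CPM in Rag1-/- libraries, and 2 of its 12 genes were higher in Rag1-/- libraries, Zbtb46 (log2 fold change 1.86, adjusted p = 0.0306, edgeR) and Ccr7 (2.08, adjusted p = 0.0306), both of which lymphoid cells can also express. Zbtb46 alone had 25.5 to 48.5 CPM in WT and 129 and 152 CPM in Rag1-/- libraries, and Ccr7 12.7 to 24.0 and 82.5 and 68.1 CPM. The median log2 fold change of the list was 0.18, and 7 of the 12 genes had positive values. Siglech (-1.32), Clec9a (-1.21), Clec10a (-0.81), Sirpa (-0.39) and Cd209a (-0.26) had negative values and were not called. At an unadjusted p-value under 0.05 there were 3 genes of this list, and DESeq2 called 3, with Xcr1, the chemokine receptor of cross-presenting dendritic cells, as the third. Xcr1 had 1.44, 6.46 and 7.04 CPM in WT and 23.7 and 23.8 CPM in Rag1-/- dILC2s, without overlap (log2 fold change 2.29, adjusted p = 0.0649, edgeR, and 2.25, adjusted p = 0.00157, DESeq2). The macrophage list summed to 357 to 566 CPM in WT and 311 and 614 CPM in Rag1-/- libraries, and 0 of 16 genes were called by edgeR, with 3 at an unadjusted p-value under 0.05. DESeq2 called Lyve1 (log2 fold change -1.07, adjusted p = 0.0206) and Ccr2 (2.11, adjusted p = 0.00116) in this list. C1qa, a complement gene of macrophages, had 15.9, 17.5 and 20.8 CPM in WT and 3.48 and 22.4 CPM in Rag1-/- libraries. Ms4a1, which encodes a surface protein of B cells, was low, with 33, 6 and 4 reads in WT pools 5, 6 and 13, against 0 and 5 reads in Rag1-/- pools 2 and 7. Of 7 B cell genes tested, 0 were called by edgeR, 2 had an unadjusted p-value under 0.05, and DESeq2 called Cd79b (higher) and Pax5 (lower). Pax5, the factor that fixes B cell identity, was read 93, 13 and 27 times in WT pools 5, 6 and 13, against 0 and 2 times in Rag1-/- pools 2 and 7. The sum of the B cell list (31.7 to 56.8 CPM in WT, 61.6 and 25.9 CPM in Rag1-/- libraries) rested on Ebf1 and Ighm.

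Per count of the genes of all leukocytes, class II was lower in both Rag1-/- libraries than in any WT library. In CPM the class II chains and Cd74 overlapped between the groups, whereas all 29 pan-leukocyte genes tested were higher in both Rag1-/- libraries than in any WT library. The ratio is therefore no separate result on class II. The class II chains and Cd74 had 1.34, 0.448 and 1.26 counts per count of the pan-leukocyte list in WT pools 5, 6 and 13 and 0.226 and 0.404 in Rag1-/- pools 2 and 7, without overlap (difference of mean log2 ratios -1.59, exact two-sided permutation test, p = 0.2). Of these 29 genes, 20 were called higher in Rag1-/- libraries (edgeR), with a median log2 fold change of 1.93, beside 3.57% of all genes tested. With edgeR scaled on this list, the median shift over all genes was -2.15 on the log2 scale, and 12813 of all 19011 genes tested were called lower. Of the members, 8 were called lower, with log2 fold changes from -1.67 (H2-Aa, adjusted p = 0.0428) to -2.20 (H2-Ob, adjusted p = 0.0346), and H2-Oa had 0.03 (adjusted p = 0.974). These calls are therefore not particular to the members. Per macrophage list count, class II overlapped between the groups (2.73 to 6.13 in WT, 6.45 and 5.09 in Rag1-/- dILC2s, exact two-sided permutation test, p = 0.4). The same held per dendritic cell list count (8.14 to 17.9 in WT, 6.85 and 8.99 in Rag1-/- libraries, p = 0.3, exact permutation test) and per B cell list count (27.2 to 87.5 and 32.6 to 120.5, p = 0.6, exact permutation test). The difference of mean log2 ratios per dendritic cell list was -0.644. Without Zbtb46, the most abundant gene of that list, it was -0.235 (p = 0.6, exact permutation test).

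Upstream of class II, Ifngr1, Ifngr2 and Socs1 of interferon-gamma signalling rose, while genes of the RFX and NF-Y complexes did not pass the test. Of 21 genes in the list of class II enhanceosome factors and Ciita regulators, 5 were higher and 1 was lower in Rag1-/- dILC2s (edgeR), with a median log2 fold change of 0.30. Ifngr1, a chain of the interferon-gamma receptor, had 158, 379 and 321 CPM in WT pools 5, 6 and 13 and 812 and 913 CPM in Rag1-/- pools 2 and 7 (log2 fold change 1.63, standard error 0.37, adjusted p = 0.0489, edgeR). Its partner Ifngr2 had 38.6, 59.1 and 58.3 CPM in WT and 121 and 114 CPM in Rag1-/- dILC2s (1.21, standard error 0.23, adjusted p = 0.0368, edgeR). Socs1, a feedback inhibitor of the pathway, rose by 1.74, with 20.5 to 30.5 CPM in WT and 77.3 and 84.2 CPM in Rag1-/- dILC2s (adjusted p = 0.0306, edgeR). Irf4, a lymphoid and dendritic cell factor, rose by 1.56 (adjusted p = 0.0363, edgeR). Prdm1, which encodes a repressor of Ciita, was lower, with 90.3, 71.5 and 70.6 CPM in WT and 24.5 and 39.5 CPM in Rag1-/- dILC2s (log2 fold change -1.23, adjusted p = 0.0481, edgeR). In each of these 5 genes the groups did not overlap, as in 45.9% of all genes tested, and the 5 were named because they were called.

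Among genes of the complexes on the X and Y boxes, Rfx5 had a log2 fold change of -0.53 (interval -1.14 to 0.07), Rfxap of 0.15, Rfxank of 0.41, Nfya of 0.30, Nfyb of -0.01 and Nfyc of 0.04, and none of them was called. Jak1 and Jak2, the kinases of the receptor, had 0.09 and 0.87 and were not called, and Irf1, a target of the pathway, had -0.25 (adjusted p = 0.504, edgeR). With any single WT pool left out, 0 of the 21 genes were called by edgeR, and 6 or 7 had an unadjusted p-value under 0.05. These fits also called 0 of all genes tested, with 3521 to 3874 at an unadjusted p-value under 0.05, so the loss of calls is not particular to the list. DESeq2 called 6. Scaled on the pan-leukocyte list, the 5 higher genes had log2 fold changes below 0 and 13 of the 21 genes were called lower, beside 12813 of all 19011 genes tested. The pan-leukocyte genes thus moved with these regulators, and their part in the result was not tested.

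**Figure D4:**
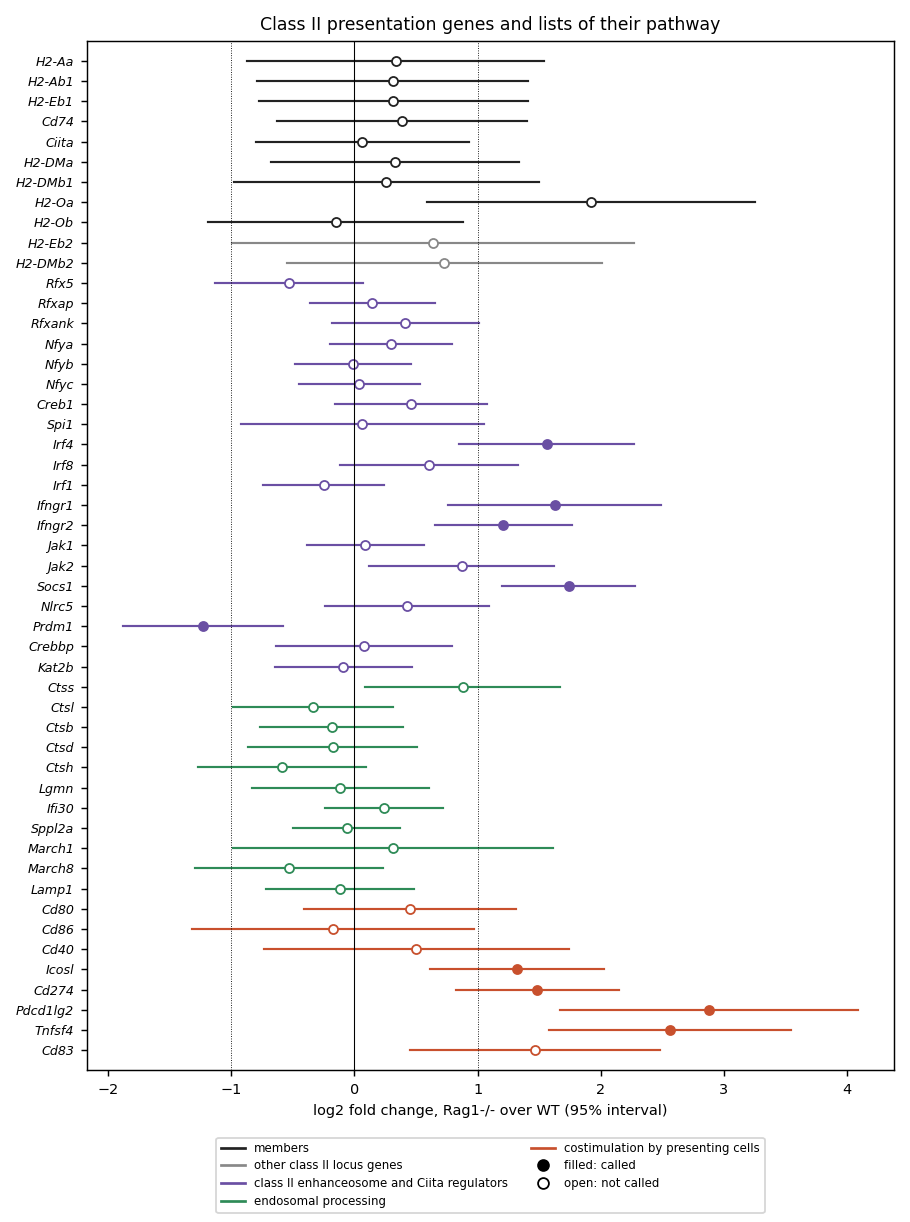
Log2 fold change of Rag1-/- over WT (x axis) with its 95% interval for the members and genes of 4 lists of the pathway, edgeR with TMM scaling. Filled points passed the threshold (4 higher and 1 lower among the 20 regulators drawn, 4 higher among costimulatory genes), open points did not, and dotted lines mark 1 and -1. Scaled on pan-leukocyte genes, which shifts the median over all genes by -2.15, 8 members lie below 0 and H2-Oa lies at 0.03.

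No gene of endosomal processing, the trimming of antigen and of the invariant chain, passed the test. Of 11 found, 0 were called in either direction by edgeR, 1 had an unadjusted p-value under 0.05, DESeq2 called 0, and the median log2 fold change was -0.12. Of all genes tested, edgeR called 5.73% and 26.4% had an unadjusted p-value under 0.05, so 0 of 11 does not set this list apart. The 1 gene was Ctss, the protease that cuts the invariant chain in antigen-presenting cells, with 39.4, 54.6 and 87.3 CPM in WT and 94.7 and 121 CPM in Rag1-/- dILC2s (log2 fold change 0.88, standard error 0.34, adjusted p = 0.154, edgeR). Ctsd, Ctsb and Lamp1, the most abundant genes of the list, had log2 fold changes of -0.18, -0.19 and -0.12. Without Rag1-/- pool 7, more genes were called lower, in this list as over all genes tested. That fit leaves 1 Rag1-/- library, so these calls are not read as a result of the list.

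Of 8 costimulatory genes, 4 were higher and 0 lower in Rag1-/- dILC2s (edgeR), with a median log2 fold change of 1.39, beside 3.57% higher and 2.16% lower of all genes tested. Tnfsf4, which encodes OX40L, had 2.14, 5.09 and 4.92 CPM in WT and 28.7 and 18.5 CPM in Rag1-/- dILC2s (log2 fold change 2.56, standard error 0.42, adjusted p = 0.0306, edgeR). Pdcd1lg2, the gene of PD-L2, had 1.11, 3.93 and 3.86 CPM in WT and 21.1 and 21.5 CPM in Rag1-/- dILC2s (2.88, standard error 0.51, adjusted p = 0.0323, edgeR). Cd274, the gene of PD-L1, rose by 1.49 (adjusted p = 0.0356) and Icosl by 1.32 (adjusted p = 0.0489). OX40L and the PD-1 ligands are proteins that ILC2s as well as presenting cells can carry. Cd80, Cd86 and Cd40, the classical costimulatory genes of presenting cells, had 0.45, -0.17 and 0.50 and were not called. Cd86 had 21.7, 18.4 and 56.5 CPM in WT and 23.2 and 31.9 CPM in Rag1-/- dILC2s, in the same library order as the class II chains. Cd83, which stabilises class II at the cell surface, had 59.9, 79.7 and 175 CPM in WT and 250 and 312 CPM in Rag1-/- dILC2s (log2 fold change 1.47, adjusted p = 0.0885, edgeR). DESeq2 called Cd83 as well (1.43, adjusted p = 0.0131). With any WT pool left out, 0 of the 8 genes were called by edgeR and 5 or 6 had an unadjusted p-value under 0.05. These fits also called 0 of all genes tested, with 3521 to 3874 at an unadjusted p-value under 0.05. Scaled on the pan-leukocyte list, 0 of the 8 were higher and 1 was lower, beside 12813 of all 19011 genes tested called lower.

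Other genes of the class II locus were low. H2-Eb2, a second E beta gene, had 0.954, 0.304 and 0.789 CPM in WT and 1.49 and 0.694 CPM in Rag1-/- dILC2s, with a log2 fold change of 0.64 (adjusted p = 0.620, edgeR), and that of H2-DMb2 was 0.73 (adjusted p = 0.448, edgeR). H2-Ea-ps, the E alpha gene listed as a pseudogene, was read at most 6 times in any library and was not tested.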

How the data were processed

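The deposited counts, raw counts of reads per gene in 5 libraries, were used. By the submitters' processing notes and the methods, the authors aligned single-end 50-base reads to GRCm38 with STAR 2.5 and counted them with featureCounts 1.5.0-p1. The labels and the methods name different Ensembl releases, and the strand setting is not given in the sources used here. A normalized table made from the same counts was not used. The deposited transcript length, a single length per gene, served for CPM per kb. CPM are counts scaled to the library total. The test of genotype, the only factor, was the quasi-likelihood test of edgeR 4.0.16 (R 4.3.3) after filterByExpr and TMM scaling, and p-values were adjusted by Benjamini-Hochberg over all genes tested. Standard errors and 95% intervals came from the fold change and the F statistic. DESeq2 1.42.0, other scalings, filters and thresholds and each library left out were alternatives. A symbol on several rows was read from the row with the most counts. The edgeR fit was tested on simulated counts. Labels do not say more of how pools were formed, so p-values measure the spread between pools. Members and lists were chosen with earlier results of these data known. Named genes are the members, called genes of the pathway lists, the most abundant genes of a list and the 10 genes nearest to the class II profile, and other genes named, among them Cd207, Cd83, the RFX and NF-Y genes and the B cell genes, were chosen after their values were seen. Some genes of the lists are counted but not reported here by name or drawn. The other lists were also examined. By edgeR, 0 of 8 mast cell, 0 of 8 fibroblast and 0 of 8 endothelial genes were called (1, 0 and 2 at an unadjusted p-value under 0.05, and 1, 0 and 1 called by DESeq2), and 3 of 10 T cell, 6 of 16 ILC2 and 5 of 10 ILC3 genes were higher and 5 of 14 keratinocyte genes lower. Of all genes tested, edgeR called 3.57% higher and 2.16% lower, and 26.4% had an unadjusted p-value under 0.05.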

Additional observations from a re-analysis of the deposited data

How the results depend on the processing

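No paired analysis was possible because the WT and Rag1-/- libraries share no replicate number. No result of the 9 members passed the threshold under RLE scaling, library size alone, a minimum of 10 counts in every library, a robust fit, the adjusted p-value alone or any library left out. Members called numbered 0, against 1 (H2-Oa) with DESeq2 and 1 (H2-Oa) without the filter, and 8 with scaling on the pan-leukocyte list. All genes called numbered 1090, against 2454 with DESeq2, 2645 without the filter, 12829 with scaling on the pan-leukocyte list, 0 when tested for a change beyond 1 on the log2 scale (1635 at an unadjusted p-value under 0.05, edgeR), and 0 to 2409 with a library left out (0 without any WT pool or Rag1-/- pool 2, 2409 without pool 7; 3521 to 6188 at an unadjusted p-value under 0.05). The split into higher and lower genes was 679 and 411, against 1198 and 1256 with DESeq2, 1157 and 1488 without the filter, and 16 and 12813 with scaling on the pan-leukocyte list. With scaling on the pan-leukocyte list, the regulators called were 13, endosomal processing genes 9 and costimulatory genes 1. Tested for a change beyond 1, the regulators and costimulatory genes called were 0. With a library left out, they were 0 to 5 for regulators, 0 to 2 for processing and 0 to 4 for costimulation. The pan-leukocyte scaling reversed the log2 fold changes of H2-Aa (-1.67), H2-Ab1 (-1.72), H2-Eb1 (-1.72), Cd74 (-1.67), Ciita (-2.18), H2-DMa (-1.74) and H2-DMb1 (-1.73), and Ciita was at -0.0104 without the filter. With a library left out, values ranged from -0.34 to 0.96 for H2-Aa, -0.19 to 0.89 for H2-Ab1, -0.12 to 0.91 for H2-Eb1, 0.04 to 0.92 for Cd74, -0.17 to 0.20 for Ciita, -0.0572 to 0.85 for H2-DMa, -0.35 to 0.95 for H2-DMb1, 1.57 to 2.19 for H2-Oa and -0.36 to 0.0504 for H2-Ob. The log2 ratio of class II to the Langerhans cell list differed by 0.95 between the groups, and by -0.26 with Cd207 alone as the denominator, a choice made after the data were seen. The ratio to the B cell list differed by -0.47 to 1.41 with a library left out. The cause of these changes was not tested. Depth limits H2-Oa and H2-Ob most, with 20 and 18 counts in Rag1-/- pool 2.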
